A study of Mus musculus with 6 samples.

Results

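Enzymes that remove superoxide and peroxides were followed in mouse platelets as a group of 10 genes, chosen by name and matched by Entrez identifier, and all 10 were among the 9822 genes of the deposited count tables. The group holds the superoxide dismutases Sod1 and Sod2, catalase (Cat), the glutathione peroxidases Gpx1 and Gpx4, the peroxiredoxins Prdx1, Prdx2, Prdx5 and Prdx6, and thioredoxin (Txn1). Nxf1 encodes an export receptor for nuclear mRNA, and the question was how platelet transcripts differ in mice with the C587R change in 1 of its copies. The mutant group was 3 platelet pools from Nxf1+/C587R males and the other group 3 pools from wild-type littermate males, all on the BalB/c background (ages not given). Each pool combined suspensions with more than 98% CD41+ platelets by flow cytometry, and 1 mutant and 1 wild-type pool shared each of 3 preparation days. The wild-type records duplicate ones first deposited with an earlier series, and the number of animals per pool is not given.

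Platelets make peroxide when they are activated and carry few ways to replace damaged protein, since they have no nucleus. Superoxide is turned into hydrogen peroxide by superoxide dismutases, Sod1 in the cytosol and Sod2 in mitochondria. Catalase then splits hydrogen peroxide directly, glutathione peroxidases reduce it with glutathione, and peroxiredoxins reduce it with a reactive cysteine that most of them restore through thioredoxin. Red cells also hold large amounts of catalase, Gpx1, Prdx2 and Sod1.

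The libraries held 25189231 to 29421549 counts. All 12 platelet markers were listed, with summed levels of 42115 to 46586 CPM (counts scaled to a common library total with the TMM factors of edgeR) in mutant and 33621 to 40902 CPM in wild-type libraries, and 5 of them rose and 2 fell by the test described below. The 10 red cell markers found, of 15 sought, summed to 31638 CPM in the mutant and 35892 CPM in the wild-type library of day 1, against 3983 and 4582 CPM in the mutant and 4322 and 4452 CPM in the wild-type libraries of days 2 and 3. The pools of day 1 thus stood apart in both genotypes. No red cell marker was called by edgeR in either direction (1 higher and 0 lower at an unadjusted p under 0.05, 0 and 0 by DESeq2, 3 and 2 when the fit held the preparation day as a block). The 13 B cell markers summed to 299 to 372 CPM in mutant libraries, against 383 to 511 CPM in wild-type libraries, and 5 of them fell (9 with the block). Over all genes the test called 12.9% higher and 9.16% lower, and with the block 22% and 18%. The 6 monocyte and macrophage markers found, of 10, summed to 1771 to 2085 CPM in mutant and 1154 to 1592 CPM in wild-type pools, nearly all of it Lyz2. The 6 neutrophil markers found, of 12, stayed at 15.4 to 23.1 CPM in mutant libraries, against 15.1 to 20.1 CPM in wild-type libraries, and the 10 T and NK cell markers found, of 12, at 25.8 to 28.3 CPM in mutant and 25.6 to 31.3 CPM in wild-type pools. No marker found was at 0 in any library. Nxf1 itself had 3.29 ± 0.894 CPM in mutant libraries, against 3.73 ± 1.05 CPM in wild-type libraries (SD, n = 3 each), and was not called (-0.19, edgeR adjusted p = 0.604). Fewer cells of a type and less RNA per cell cannot be told apart in such pools.

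Transcript levels of the enzymes were compared with each other as CPM per kilobase of the deposited gene length. All 10 lay above the median gene in wild-type platelets. Catalase was the most abundant, at 471 ± 28.3 in mutant and 473 ± 61.9 CPM per kb in wild-type libraries (SD, n = 3 each), and its wild-type level was rank 140 of the 9822 genes. Prdx6, a peroxiredoxin that uses glutathione in place of thioredoxin and also acts on phospholipid peroxides, was close behind with 425 ± 15.3 in mutant and 445 ± 48.1 CPM per kb in wild-type libraries. In the mutant every catalase library was above every Prdx6 library, and in the wild type the ranges overlapped.

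Prdx5 and Gpx1 formed the next step, at 305 ± 24.9 and 340.1 ± 40.7 CPM per kb in mutant libraries and at 299 ± 42.6 and 266 ± 52.8 CPM per kb in wild-type libraries. Their order was thus opposite in the genotypes, but their ranges overlapped in each. Gpx4 and Sod1 also overlapped each other in each genotype, with Gpx4 at 158 ± 23.1 in mutant and 118 ± 16.3 CPM per kb in wild-type libraries and Sod1 at 141 ± 24.1 and 133 ± 22.2 CPM per kb. Prdx2 (40.5 ± 11.3 in mutant and 35.2 ± 6.42 CPM per kb in wild type) and Txn1 (23.9 ± 2.97 and 30.3 ± 4.44) followed, separate in the mutant and overlapping in the wild type. Prdx1 (17.04 ± 2.30 and 15.6 ± 1.24) and the mitochondrial Sod2 (2.38 ± 0.155 and 2.44 ± 0.113) were the lowest of the 10 in each genotype. Sod2 was rank 3833 of all genes, well below the cytosolic dismutase Sod1 at rank 393.

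**Figure D1:**
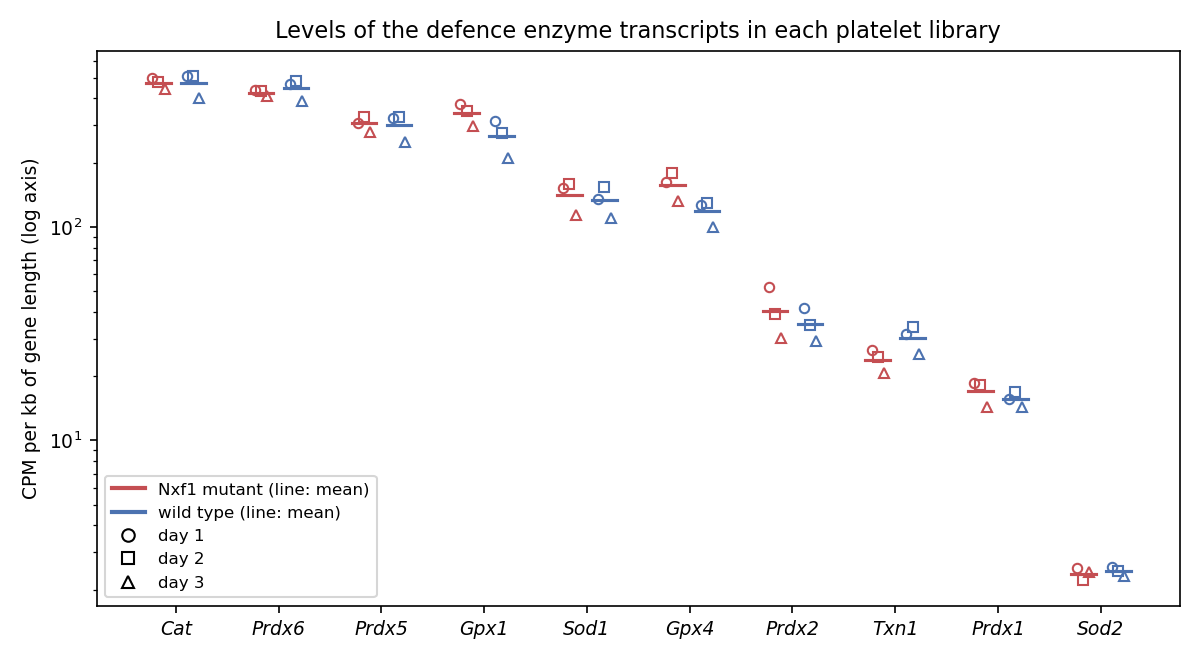
Level of each defence enzyme transcript in CPM per kb of gene length (log axis) in the 3 Nxf1 mutant (red, left of each pair) and 3 wild-type libraries (blue), with symbols for the preparation day and a line at the mean. Catalase and Prdx6 lie highest and Sod2 lowest at about 2.4 CPM per kb, and Gpx4 is the gene whose red symbols all lie above the blue ones.

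Genotypes were compared with the quasi-likelihood test of edgeR fitted to all 9822 genes, with Benjamini-Hochberg adjustment at 0.05. Of the 10 enzymes 1 was higher (Gpx4) and 0 were lower in mutant platelets, where 12.9% of all genes were called higher and 9.16% lower, 22.1% in all. The share of members called was thus near the background. At an unadjusted p under 0.05 edgeR had 2 higher and 1 lower, and DESeq2 and limma-voom each called 1 higher and 0 lower after adjustment. When the fit held the day as a block, 3 were higher (Gpx1, Gpx4 and Prdx2) and 1 lower (Txn1) by edgeR, where 22% of all genes were called higher and 18% lower, 40% in all. The same shares over all genes apply to the adjusted edgeR counts of the lists below. Over all genes DESeq2 called 1140 higher and 738 lower of 9052 with an adjusted p, and limma-voom 1279 and 891 of 9822. The share of all genes at an unadjusted p under 0.05 was not counted, so counts at that threshold, above and below, stand without a background. The median log2 fold change of the 10 was 0.06, beside -0.04 over all genes tested. Within days 5 of the 10 (Gpx1, Gpx4, Prdx1, Prdx2 and Sod1) were higher on all 3 days, as were 30.1% of all genes, and Txn1 alone was lower on all 3, as were 30.7%, together 6 of 10 beside 60.8%. The joint level of the 10 overlapped between genotypes, with 2890 to 3296 CPM in mutant and 2600 to 3284 CPM in wild-type libraries. As a share of raw counts, without TMM scaling, it was 0.300% to 0.310% in mutant and 0.308% to 0.314% in wild-type libraries. Cat made up 37.7% to 39.6% of the summed CPM of each library and Prdx6 30.9% to 35%.

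**Figure D2:**
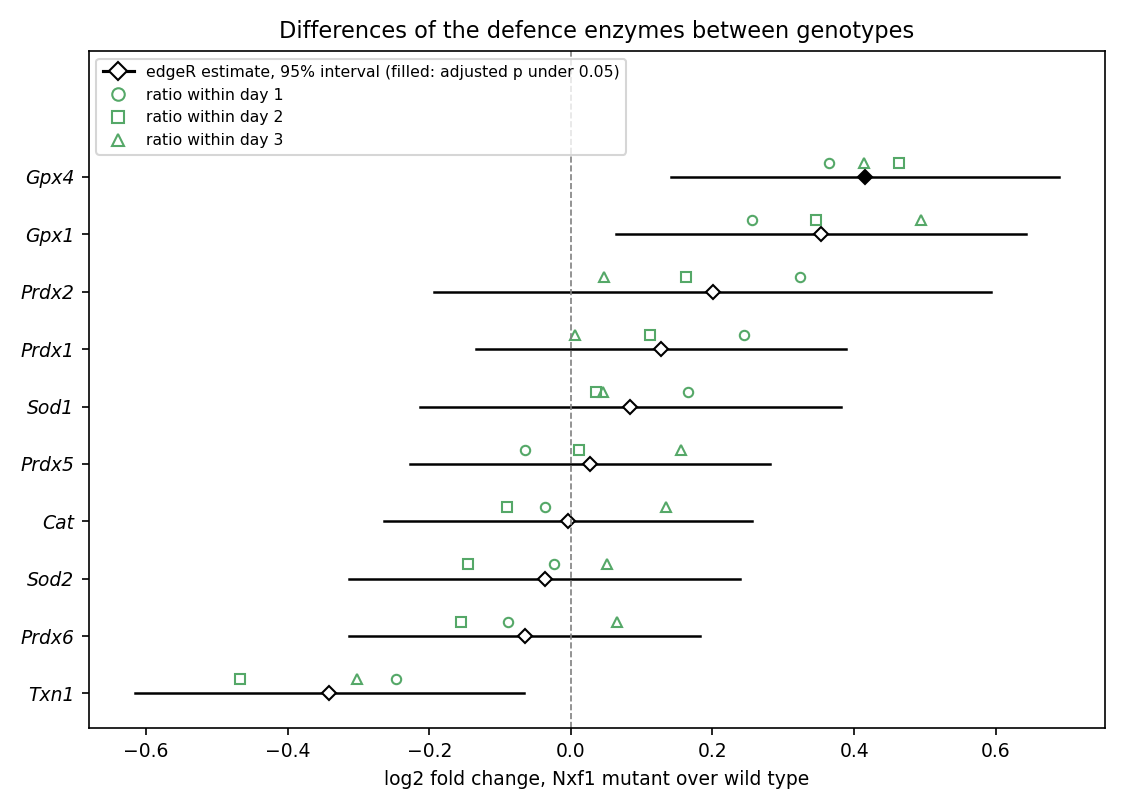
Log2 fold change of each enzyme, Nxf1 mutant over wild type, with its 95% interval from edgeR (diamonds, filled where the adjusted p is under 0.05) and the ratio within each preparation day (green symbols). Gpx4 (0.42) and Gpx1 (0.35) lie furthest right and Txn1 (-0.34) furthest left, with their day ratios on the same side of 0, and the intervals of the other 7 span 0.

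Gpx4 is the glutathione peroxidase that reduces lipid peroxides within membranes and thereby holds off ferroptosis, an iron-dependent form of cell death. Gpx4 (Entrez 625249, protein-coding, chr10:80047166-80056439, mm10) had 195, 214 and 159 CPM in the mutant pools of days 1, 2 and 3, against 151, 155 and 119 CPM in the wild-type pools of the same days. The lowest mutant value was above the highest wild-type value, a separation seen for 36.3% of all genes. Means were 189 ± 27.8 CPM in mutant libraries, against 142 ± 19.6 CPM in wild-type libraries (SD, n = 3 each), a log2 fold change of 0.42 ± 0.13 (SE, edgeR adjusted p = 0.0272) or a 1.33-fold rise with a 95% interval of 1.10 to 1.61. The rise was 0.36, 0.46 and 0.41 on the log2 scale within days 1, 2 and 3. The adjusted p was 5.71e-09 with the day as a block. It passed 0.05 no longer, with a log2 fold change still between 0.40 and 0.44, when wild-type replicate 1 or 2 (0.0757 and 0.0504) or day 1 (0.181) was left out. The call was lost with a smaller log2 fold change without mutant replicate 1 (0.35, adjusted p = 0.159), mutant replicate 2 (0.27, 0.307), wild-type replicate 3 (0.30, 0.0571) or day 2 (0.34, 0.29). It was also lost with the 10 most abundant genes left out of the scaling (0.37, 0.0568) and when genes averaging under 10 CPM were left out (0.25, 0.0525). Its pseudogenes Gpx4-ps1 and Gpx4-ps2 could share reads with it, and how such reads were counted is not given.

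Gpx1, the main cytosolic glutathione peroxidase for hydrogen peroxide (Entrez 14775, chr9:108339080-108340342), had 393, 364 and 309 CPM in the mutant pools of days 1, 2 and 3, against 329, 287 and 219.6 CPM in the wild-type pools. Each mutant pool was above its wild-type partner of the day, while the 2 groups overlapped because both were lowest on day 3. Both were highest on day 1, the day of the red cell RNA, whose part in the level of Gpx1 was not tested. The log2 fold change was 0.35 ± 0.14 (SE, unadjusted p = 0.0196, edgeR adjusted p = 0.0767), so Gpx1 did not pass. It passed in 5 of 20 alternatives, among them library size alone (0.0303), mutant replicate 3 left out (0.0193) and day 3 left out (0.00884). It did not pass, for example, without mutant replicate 1 (0.413), mutant replicate 2 (0.311) or day 2 (0.374). With the day as a block it passed as well (0.36 ± 0.07, edgeR adjusted p = 3.94e-07 and 5.95e-09 by DESeq2). Ratios within days 1, 2 and 3 were 0.26, 0.35 and 0.49 on the log2 scale.

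Gpx1 and Gpx4 share selenocysteine at the catalytic site, the amino acid that is read from an in-frame TGA codon and carries selenium in place of sulfur. The codon and 21 coding bases on each side were read from the GENCODE vM21 transcript with the longest reading frame. They are shown with the TGA in capitals for these 2 enzymes and for the 4 other selenoprotein genes that passed the test. Exon and codon numbers are those of the longest reading frame, and counts per gene do not show which transcript platelets hold. The codon lies in exon 1 of 2 in Gpx1 (chr9:108339451-108339453, plus strand, codon 47 of 201) and in exon 3 of 7 in Gpx4 (chr10:80054737-80054739, plus strand, codon 129 of 253). It lies in exon 3 of 4 in Msrb1 (chr17:24740158-24740160), in exon 3 of 5 in Selenof (chr3:144590645-144590647), in exon 2 of 6 in Selenot (chr3:58585238-58585240) and, as the first of 10 such codons, in exon 2 of 5 in Selenop (chr15:3274848-3274850), all on the plus strand.
Gpx1: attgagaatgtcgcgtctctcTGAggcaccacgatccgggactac
Gpx4: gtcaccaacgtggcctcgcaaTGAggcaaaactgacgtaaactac
Msrb1: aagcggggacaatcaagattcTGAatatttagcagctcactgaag
Selenof: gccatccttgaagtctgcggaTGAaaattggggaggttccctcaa
Selenot: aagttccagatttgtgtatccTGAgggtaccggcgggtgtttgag
Selenop: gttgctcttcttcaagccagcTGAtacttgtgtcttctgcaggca

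GENCODE annotates such a codon in 24 mouse genes, of which 19 were in the tables. This grouping was made after the values of Gpx1 and Gpx4 had been seen and is given without a test. Of the 19, 5 were higher and 0 lower in mutant platelets by edgeR, beside the 12.9% and 9.16% of all genes, and DESeq2 and limma-voom each called 5 higher and 0 lower. At an unadjusted p under 0.05, where no share over all genes was counted, edgeR had 7 higher and 0 lower. With the day as a block it called 7 higher and 0 lower, beside 22% and 18% of all genes. Their median log2 fold change was 0.12, with 12 of 19 above 0. The groups did not overlap for 6 of the 19, a separation seen for 36.3% of all genes. Selenof, an endoplasmic reticulum oxidoreductase, had 265, 245 and 221 CPM in the mutant pools and 175, 176 and 132 CPM in the wild-type pools of days 1, 2 and 3, a log2 fold change of 0.60 ± 0.13 (SE, edgeR adjusted p = 0.00168). The groups did not overlap for Selenof, nor for Selenot, an endoplasmic reticulum thioredoxin-like protein (0.58 ± 0.12, adjusted p = 0.00186), Selenop, the plasma carrier of selenium (0.52 ± 0.11, adjusted p = 0.00267), or Msrb1, a methionine sulfoxide reductase (0.45 ± 0.11, adjusted p = 0.00685).

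Other selenoprotein genes did not pass. Selenow had 149 ± 16.7 CPM in mutant libraries, against 143 ± 20.2 CPM in wild-type libraries (SD, n = 3 each), and the thioredoxin reductase gene Txnrd1 had 8.43 ± 0.403 and 7.53 ± 0.551 CPM, with adjusted p-values of 0.807 and 0.456 by edgeR. Another list, of selenoproteins and their synthesis factors, left out the glutathione peroxidases, Msrb1, Dio1 and the thioredoxin reductases. Its selenoproteins were also in the annotated group above. By edgeR the list held 4 higher and 0 lower of 19, beside 12.9% and 9.16% of all genes. The 4 were Selenof, Selenot and Selenop, counted above as well, and Lrp8, a receptor that takes up Selenop (0.50, adjusted p = 0.0346). The call of Lrp8 was lost in 10 of 19 alternatives, with log2 fold changes of 0.34 to 0.61, and that of Selenop in 3 of 20 (mutant replicate 2, day 1 or day 2 left out, 0.0554, 0.0624 and 0.0693). Selenot was lost without day 2 (0.0823), and Selenof in none of 20. Msrb1 was lost in 5 of 20, without mutant replicate 1 or 2 (0.0564 and 0.112), wild-type replicate 1 (0.0505), day 1 (0.113) or day 2 (0.147). At an unadjusted p under 0.05 edgeR had 5 higher and 0 lower in the list with the synthesis factors, DESeq2 called 3 and 0, and edgeR with the block 5 and 0. Of the synthesis factors themselves, such as Sephs2, which makes the selenium donor (-0.09, adjusted p = 0.699), none was called by edgeR. Summed levels of this list were 649 to 743 CPM in mutant libraries, against 461 to 585 CPM in wild-type libraries. Most of that difference lay in Selenof, Selenot and Selenop. Their mutant means were 244, 132 and 104 CPM, beside wild-type means of 161, 88.1 and 72.8 CPM. The median log2 fold change of the list was 0.009, and 15 of its 19 genes were not called.

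**Figure D3:**
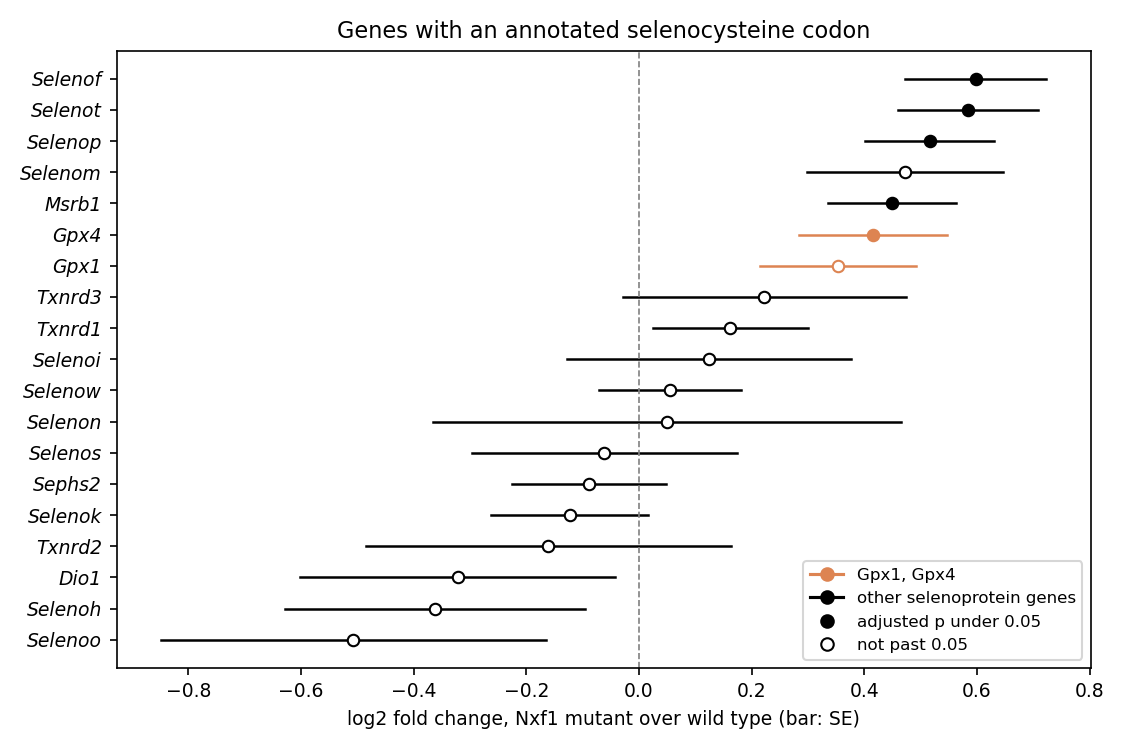
Log2 fold change (Nxf1 mutant over wild type, bars are SE) of the 19 genes with an annotated selenocysteine codon, filled where the edgeR adjusted p is under 0.05, with Gpx1 and Gpx4 in orange. The 5 filled genes lie between 0.42 and 0.60, while 7 genes lie below 0 with open symbols.

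Txn1 reduces the disulfides of oxidised peroxiredoxins and other proteins with a pair of cysteines, and is itself restored by thioredoxin reductase. The cysteine codons 32 and 35 of 105 lie in exon 2 of 5 (chr4:57951821-57951832, minus strand), and are shown in capitals with the coding bases on each side.
Txn1: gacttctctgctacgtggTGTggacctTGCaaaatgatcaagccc

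Txn1 (Entrez 22166, chr4:57943373-57956411) had 27.8, 25.9 and 21.7 CPM in the mutant pools of days 1, 2 and 3, against 33.0, 35.9 and 26.7 CPM in the wild-type pools. It was lower in the mutant pool on each day, although the mutant pool of day 1 was above the wild-type pool of day 3. The log2 fold change was -0.34 ± 0.13 (SE, unadjusted p = 0.0177, edgeR adjusted p = 0.071), a ratio of 0.789 with a 95% interval of 0.653 to 0.955. Txn1 passed with the day as a block (edgeR adjusted p = 3.28e-05 and 0.00219 by DESeq2), with library size alone (0.00849), with upper-quartile factors (0.0252), with the 10 most abundant genes or the red cell genes left out of the scaling (0.045 and 0.0417) and when genes averaging under 10 CPM were left out (0.00269). It passed too without mutant replicate 1 (0.0465), wild-type replicate 3 (0.00842) or day 3 (0.0149). These were 10 of 20 alternatives. Among the others were DESeq2 without the block (0.126), mutant replicate 3 left out (0.226) and day 2 left out (0.334). The scalings named here moved the median log2 fold change of all genes by -0.043 to -0.086. The filter moved that of the genes it kept by -0.165. Within days 1, 2 and 3 the Txn1 ratios were -0.25, -0.47 and -0.30 on the log2 scale.

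Among the 16 partners of thioredoxin and the peroxiredoxins 2 were higher and 2 lower by edgeR (3 and 5 with the block), with a median log2 fold change of 0.02. Srxn1, sulfiredoxin, which repairs overoxidised peroxiredoxins, had 558, 541 and 564 CPM in the mutant pools of days 1, 2 and 3, against 831, 754 and 728 CPM in the wild-type pools. The groups lay well apart, and Srxn1 fell by 0.47 ± 0.11 on the log2 scale (SE, edgeR adjusted p = 0.00409), a call lost without day 1 (0.118) or day 2 (0.0863). Summed levels of the list were 781 to 802 CPM in mutant libraries, against 954 to 1080.2 CPM in wild-type libraries. Most of that was Srxn1, and the other 15 genes summed to 219.9 to 243 CPM in mutant libraries, with 226 to 254 CPM in the wild type. The methionine sulfoxide reductases, which also draw on thioredoxin, moved in opposite directions, Msrb2 with -0.68 (adjusted p = 0.000397) and Msra and Msrb1 with 0.64 and 0.45 (0.00515 and 0.00685). Msra was lost in 4 of 19 alternatives, with library size alone (0.0512) and without mutant replicate 1 (0.0579), day 1 (0.142) or day 2 (0.0981). The peroxiredoxins outside the 10 were not called, Prdx4 of the endoplasmic reticulum with -0.33 (adjusted p = 0.0621, 1.4e-05 with the block) and Prdx3 of mitochondria with 0.05 (0.807).

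The peroxiredoxins among the 10 did not pass the test. Prdx6 (Entrez 11758, chr1:161240112-161251210) had 1019.6, 1006 and 952 CPM in the mutant pools of days 1, 2 and 3, against 1084, 1121 and 911 CPM in the wild-type pools, with a fold of 0.956 and a 95% interval of 0.805 to 1.14. The mutant pools all lay within the wild-type range. A near copy, Prdx6b, whose coding sequence is 92.9% identical over 672 bases, was counted separately, at 103 ± 18.015 CPM in mutant libraries, against 86.7 ± 5.79 CPM in wild-type libraries (SD, n = 3 each). Reads could be split between them, and the summed counts of both gave -0.04 on the log2 scale (edgeR adjusted p = 0.858).

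Prdx5 acts in mitochondria, peroxisomes and the cytosol, and its gene (Entrez 54683, chr19:6906697-6910106) lies 1.85 Mb from Nxf1. It had 212, 226 and 192 CPM in the mutant pools of days 1, 2 and 3, against 222, 224 and 172 CPM in the wild-type pools, a fold of 1.02 with a 95% interval of 0.854 to 1.22. The groups overlapped and the sign differed between days. Prdx5 overlaps Trmt112 and the library kit does not mark strand. The count of Trmt112 was 6.93 ± 1.01 CPM in mutant libraries, against 8.56 ± 0.302 CPM in wild-type libraries (SD, n = 3 each). How reads in the shared stretch were counted is not given, and their part in the level of Prdx5 was not tested.

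Prdx1 and Prdx2, the cytosolic peroxiredoxins that depend on thioredoxin, were far less abundant per kb than Prdx6. Prdx1 (Entrez 18477, chr4:116685599-116700000) had 26.3, 25.7 and 20.4 CPM in the mutant pools, against 22.2, 23.8 and 20.3 CPM in the wild-type pools of days 1, 2 and 3, a fold of 1.09 with a 95% interval of 0.911 to 1.31. Prdx2 (Entrez 21672, chr8:84969622-84974811) had 49.4, 36.6 and 28.3 CPM in the mutant pools, against 39.5, 32.7 and 27.4 CPM in the wild-type pools. It was highest on day 1 in both genotypes, the day of the red cell RNA. Gpx1 and Cat were also highest on day 1 in both genotypes, and Sod1 on day 2. The log2 fold change of Prdx2 was 0.20 ± 0.18 (SE, edgeR adjusted p = 0.497), with ratios of 0.32, 0.16 and 0.05 within days 1, 2 and 3. With the day as a block it passed by edgeR (adjusted p = 0.0331) and not by DESeq2 (0.147), and without day 1 its log2 fold change was 0.07. The part of red cell RNA in this result was not tested. On day 1 the red cell sum was lower in the mutant pool while Prdx2 was higher. Both genes have pseudogenes in RefSeq, so their levels are uncertain.

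**Figure D4:**
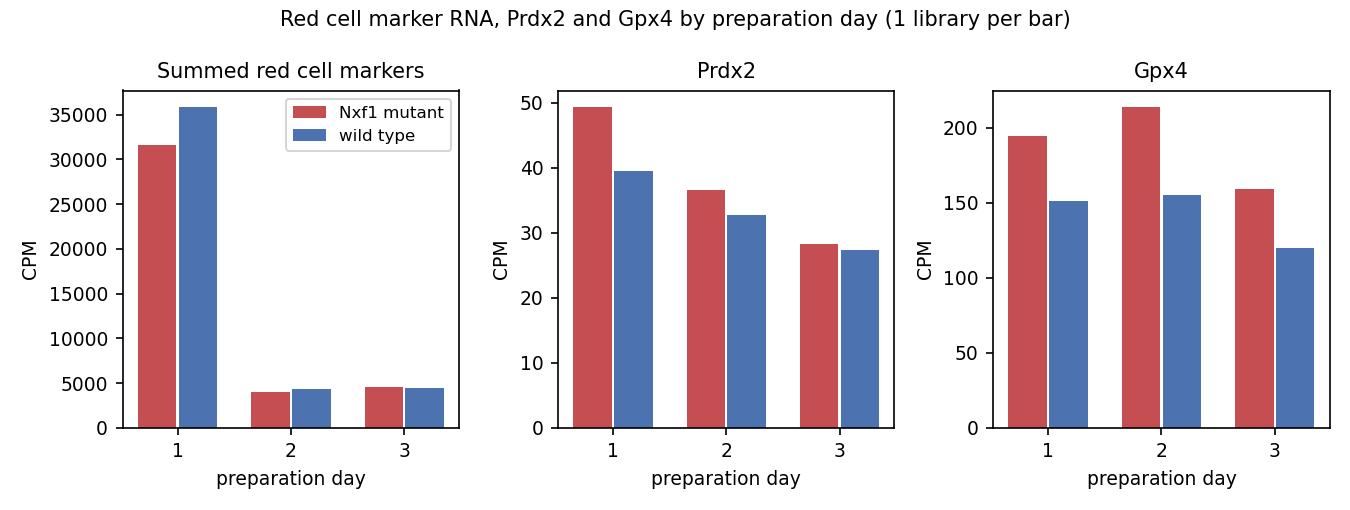
Summed CPM of 10 red cell markers and CPM of Prdx2 and Gpx4 in each library by preparation day, Nxf1 mutant (red, left) and wild type (blue), 1 library per bar. The red cell sum was 31638 CPM in the mutant and 35892 CPM in the wild-type pool of day 1 and at most 4582 CPM on the other days, Prdx2 was highest on that day, and Gpx4 was higher in the mutant pool on each day.

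Catalase and the dismutases did not pass the test. Cat (Entrez 12359, chr2:103453904-103485153) had 1266, 1217 and 1124 CPM in the mutant pools of days 1, 2 and 3, against 1298, 1296 and 1024 CPM in the wild-type pools. The mutant pools lay within the wild-type range, and the fold was 0.997 with a 95% interval of 0.833 to 1.19. When genes averaging under 10 CPM were left out, which changes the scaling, Cat and Prdx6 were called lower (-0.16 and -0.23 on the log2 scale, adjusted p = 0.0478 and 0.00662 by edgeR), and that setting moved the median of the genes it kept by -0.165 on the same scale. Cat had the opposite sign, without a call, in 6 of 20 alternatives.

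Sod1 (Entrez 20655, chr16:90220762-90226333), the copper and zinc enzyme of the cytosol, had 98.0, 102 and 73.5 CPM in the mutant pools of days 1, 2 and 3, against 87.4, 99.9 and 71.2 CPM in the wild-type pools, a fold of 1.06 with a 95% interval of 0.863 to 1.30. Sod2 (Entrez 20656, chr17:13007839-13018119), the manganese enzyme, had 9.62, 8.45 and 9.23 CPM in the mutant pools, against 9.78, 9.35 and 8.91 CPM in the wild-type pools, a fold of 0.975 with a 95% interval of 0.805 to 1.18. The groups overlapped for each. The manganese transporter genes sought, Slc39a8, Slc39a14 and Slc30a10, were not among the genes counted. Of 5 copper-handling genes found 0 were higher and 1 lower by edgeR (2 and 1 with the block, 1 and 1 at an unadjusted p under 0.05, 0 and 0 by DESeq2). The lower gene was the copper importer Slc31a1, at 0.469 ± 0.114 CPM in mutant libraries, against 0.975 ± 0.164 CPM in wild-type libraries (SD, n = 3 each, edgeR adjusted p = 0.0206), and it overlaps Fkbp15. Its call was lost in 7 of 19 alternatives, among them DESeq2 (0.0673) and day 1 or day 2 left out (0.0677 and 0.248). Of 12 peroxisome biogenesis genes, which build the organelle that holds catalase, 0 were higher and 0 lower by edgeR (1 and 1 at an unadjusted p under 0.05, 0 and 0 by DESeq2, 2 and 0 with the block), with a median of -0.10.

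Genes that make peroxide included 3 higher and 0 lower of 11 by edgeR (3 and 0 at an unadjusted p under 0.05 and by DESeq2, 4 and 1 with the block). Over all genes edgeR called 12.9% higher and 9.16% lower after adjustment, and 22% and 18% with the block. Cyba, the p22phox subunit shared by several NADPH oxidases, had 98.8, 94.996 and 81.1 CPM in the mutant pools of days 1, 2 and 3, against 49.7, 50.8 and 41.5 CPM in the wild-type pools. The groups lay far apart, with a log2 fold change of 0.95 ± 0.12 (SE, edgeR adjusted p = 1.37e-05). Cybc1, a chaperone needed for the same oxidase, and Rac1, a GTPase that activates oxidases and also drives the platelet cytoskeleton, rose by 0.57 and 0.54 (adjusted p = 0.00146 and 0.0041). The call of Rac1 was lost without day 1, 2 or 3 (0.0696, 0.09 and 0.0812) and without mutant replicate 1 (log2 fold change 0.41, 0.0923), and that of Cybc1 without day 2 (0.0601). Cybb, the catalytic subunit of the phagocyte oxidase, was not called (-0.21, adjusted p = 0.412). Summed levels of the list were 1129 to 1349 CPM in mutant libraries, against 821 to 965 CPM in wild-type libraries, most of it Rac1. The other 10 genes summed to 219 to 226 CPM in mutant and 169 to 194 CPM in wild-type libraries. Lyz2, a monocyte and macrophage marker, also rose, to 1913 ± 158 CPM in mutant against 1358 ± 219.9 CPM in wild-type libraries (SD, n = 3 each, edgeR adjusted p = 0.00935), while Ly6c2 of that list fell (-0.76, adjusted p = 0.0307) and Csf1r, Cd68, Adgre1 and Ccr2 stayed at or below 2.74 CPM in every library. Their part in the result was not tested.

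The glutathione system, which supplies Gpx1, Gpx4 and Prdx6, held 20 measured genes, 4 of them higher and 3 lower (block fit: 7 and 4), with a median of 0.01. Slc7a11, the cystine importer, was at 0.970 ± 0.0340 CPM in mutant libraries, against 2.03 ± 0.0885 CPM in wild-type libraries (SD, n = 3 each), and fell by 1.06 on the log2 scale (edgeR adjusted p = 0.00195). Chac2, which breaks down glutathione, fell to 34.1 ± 2.61 CPM in mutant libraries, against 58.4 ± 7.88 CPM in wild-type libraries (-0.77, adjusted p = 0.00014), and it overlaps Asb3. The glutathione transferases Gsto1 and Gstk1 rose by 0.61 and 0.87 (adjusted p = 0.00254 and 0.00428), and Gstk1 was lost without day 1 (0.0696). Gclm, the regulatory subunit of the first enzyme of glutathione synthesis, had 512 ± 48.5 CPM in mutant libraries, against 423 ± 45.2 CPM in wild-type libraries and was not called (0.28, adjusted p = 0.109, 0.000176 with the block).

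Of 17 genes that supply NADPH, the electron source of both the glutathione and thioredoxin systems, 2 were higher and 1 lower (5 and 1 with the block, 2 and 0 by DESeq2). G6pdx, the entry enzyme of the pentose phosphate pathway, rose to 116 ± 8.63 CPM in mutant libraries, against 86.6 ± 9.52 CPM in wild-type libraries (0.42, edgeR adjusted p = 0.0133). It overlaps Ikbkg. The NAD kinase gene Nadk rose by 0.40 (adjusted p = 0.0339), and the cytosolic isocitrate dehydrogenase gene Idh1 fell by 0.49 (adjusted p = 0.0471). G6pdx was lost in 5 of 20 alternatives, without day 1 (0.14), day 2 (0.207), mutant replicate 1 or 2 (0.0742 and 0.2) or wild-type replicate 1 (0.0716). Nadk was lost in 12 of 20, among them upper-quartile factors (0.0696), library size alone (0.3) and every left-out day or library but day 3 and wild-type replicate 3, and Idh1 in 8 of 19, among them DESeq2 (0.0701) and each left-out day (0.0631, 0.23 and 0.0673).

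Regulators of the response to oxidative stress and their targets were split, with 4 of 22 higher and 3 lower by edgeR (5 and 5 with the block, 2 and 3 by DESeq2, 3 and 3 by limma-voom). The transcription factor gene Foxo3 and Mafg, a partner of Nrf2 and Bach1, rose by 0.62 and 0.53 (adjusted p = 0.000689 and 0.0062). Cul3, a subunit of the ligase that degrades Nrf2, fell by 0.42 and Hmox1, heme oxygenase and a classical Nrf2 and Bach1 target, by 0.50 (adjusted p = 0.0125 and 0.0194). Each of these 4 calls was lost without day 2 (Foxo3 0.09, Mafg 0.12, Cul3 0.162 and Hmox1 0.129). Further losses were Mafg without day 1 or mutant replicate 1 (0.0538 and 0.0797), Cul3 without mutant replicate 2 or 3 (0.0557 and 0.053) and Hmox1 without day 1 or mutant replicate 1 or 2 (0.106, 0.066 and 0.0524). Nfe2l2, which encodes Nrf2 itself, was not called (-0.23, adjusted p = 0.178), nor was its inhibitor Keap1 (0.01, adjusted p = 0.968).

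**Figure D5:**
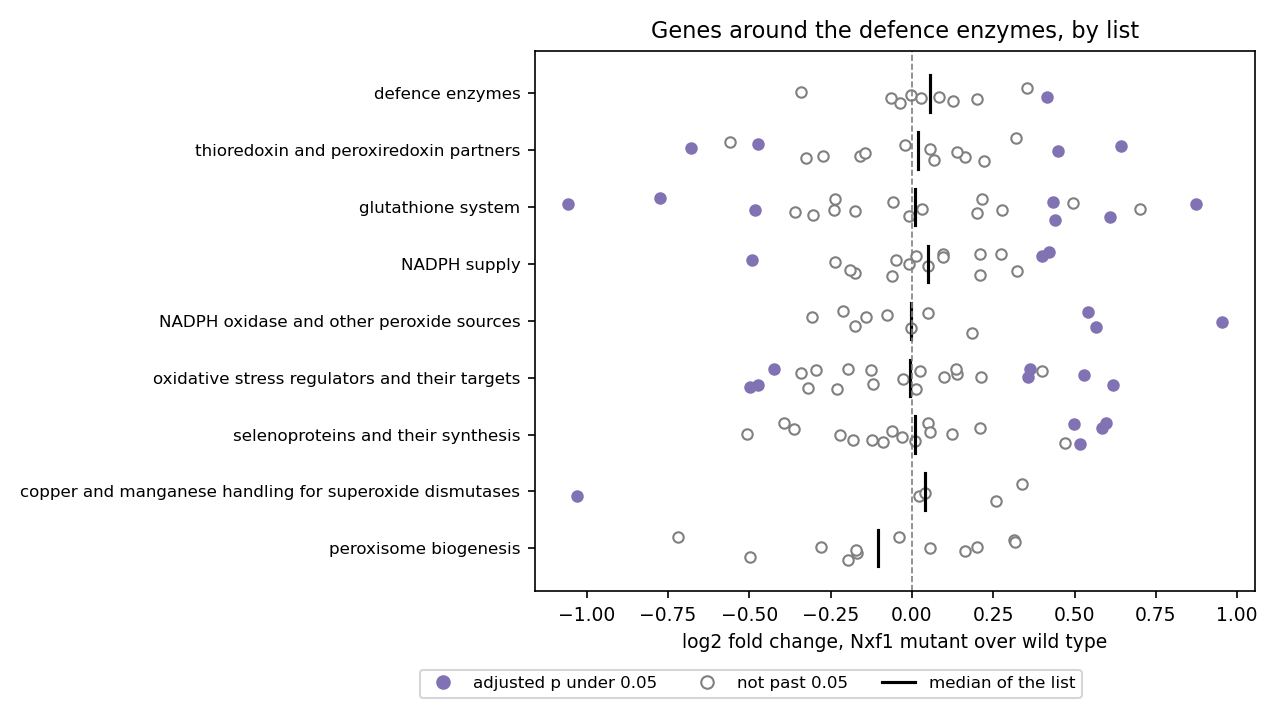
Log2 fold change (Nxf1 mutant over wild type) of the 10 defence enzymes and of the genes of 8 surrounding lists, 1 point per gene, filled where the edgeR adjusted p is under 0.05, with a line at each list's median. Filled points lie on both sides of 0 in 4 of the 8 surrounding lists, on the right alone for peroxide sources and selenoproteins, and all medians lie between -0.10 and 0.06.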

How the data were processed

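PolyA RNA of 6 platelet pools was sequenced, 3 per genotype. Each deposited file holds gene lengths and raw read counts from the authors. The submitters' processing notes name mm10, featureCounts, Subread and CASAVA 1.8.2, and no source here gives settings, strand use or the treatment of multiply mapping reads. The tables list 9822 genes, each at 0.507 CPM or more in at least 3 libraries. Of these 9636 were named from RefSeq (GRCm38.p6, the assembly of mm10), which also gave gene coordinates.

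The test was run in edgeR 4.0.16 under R 4.3.3 (TMM scaling, robust quasi-likelihood fit, genotype as the only term, two-sided, Benjamini-Hochberg over all genes). The filter filterByExpr removed 0 genes. The SE is the log2 fold change divided by the square root of F, and the 95% intervals use the fit's degrees of freedom. Ratios within days used a prior count of 0.5. The labels' batch number was read as the preparation day of the series text. It pairs the libraries: deviations from group means correlated at 0.41, 0.253 and 0.468 within days. Values between days were below 0, but centring on group means pulls them there once those within days are above 0. They therefore add nothing on the pairing. Alternatives were other scalings, filters and thresholds, DESeq2 1.42.0, limma-voom (limma 3.58.1), the day as a block, and each library or day left out. Libraries of a group all differed by more than sampling noise (mean chi-square per gene at least 14.5). As nothing says how many animals a pool held, p-values measure the spread between pools.

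The fit was tested on simulated data. Named genes were the 10 members and, per list, up to 4 called genes with the smallest p, with some neighbours or copies of members and uncalled genes named after their values were seen. Members and lists were chosen with earlier results of these data known.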

Additional observations from a re-analysis of the deposited data

How the results depend on the processing

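All 10 enzymes were above the median level also without division by gene length, and the within-day directions were the same with a prior count of 2. Of the 10 enzymes 1 was higher and 0 lower in the genotype-only fit. With library size alone 2 were higher and 1 lower, with the 10 most abundant genes left out of the scaling 0 and 1, with a mean of at least 10 CPM 0 and 3, and 0 were higher at an adjusted p of 0.01. 1 was lower with upper-quartile factors and with red cell genes left out of the scaling. With the replicate block by day, edgeR gave 3 higher and 1 lower and DESeq2 2 and 1. Leaving out 1 library or day gave 0 to 2 higher and 0 to 1 lower. The cause was not tested. Over all genes 1266 were higher and 900 lower, 2164 and 1765 by edgeR with the block, 725 higher with a mean of at least 10 CPM, 767 and 565 at an adjusted p of 0.01, and 485 to 1387 higher and 520 to 1002 lower with 1 library or day left out. Of the genes of the surrounding lists 19 were higher and 10 lower, 33 and 17 by edgeR with the block, 11 higher with a mean of at least 10 CPM, 12 and 4 at an adjusted p of 0.01, and 4 to 21 and 3 to 11 with 1 library or day left out. Of the annotated selenoprotein genes 1 to 6 were higher and 0 to 1 lower with 1 library or day left out. Among the scalings of all 9822 genes, library size alone moved the median log2 fold change most, by -0.086. The filter at 10 CPM rescales the libraries and moved the median of the 3021 genes it kept by -0.165. The selenoprotein group and the sum of Prdx6 and Prdx6b were chosen after the data were seen. Sod2, at 9.10 ± 0.593 CPM in mutant libraries, against 9.35 ± 0.432 CPM in wild-type libraries (SD, n = 3 each), had the lowest count of the 10, and 207 to 276 counts per library limit its precision by counting error alone.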
